A study of Mus musculus with 36 samples.

Results

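Common lymphoid progenitors (CLPs) of mouse bone marrow were compared at 2 ages by ATAC-seq, which reads open chromatin from where a transposase can cut. The members were the 2 CLP libraries of 10-week-old mice (young CLPs) and the 2 of 20-month-old mice (aged CLPs), 4 of the 36 libraries of the series, chosen by their labelled fraction. The other 32 libraries covered 7 other fractions of the same marrow: hematopoietic stem cells (HSCs), multipotent progenitors (MPP1 to MPP4), granulocyte-macrophage progenitors (GMPs) and megakaryocyte-erythrocyte progenitors (MEPs). All mice were C57BL/6 females, and no allele, transgene or treatment is named for either age. The sort took cells without lineage markers that carried little Sca-1 and c-kit and are labelled IL-7+. Marrow cells were pooled and sorted in duplicate. The study terms its ATAC-seq duplicates biological, and whether those of an age shared a pool of marrow is not given, so p-values measure only the spread between these libraries.

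CLPs are the progenitors from which B cells, and part of the T, NK and innate lymphoid cells, are formed. Their survival and growth depend on IL-7, and their turn towards the B lineage on the E proteins, Ebf1 and Pax5, which open and use the immunoglobulin loci. GMPs give neutrophils and monocytes under PU.1 and C/EBP factors, and CLP output is known to fall with age while myeloid output is kept.

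The regions were short stretches of chromatin, and the sequences of 8 of them are shown as examples: the 3 strongest regions called in both aged and no young library, the 3 strongest called in both young and no aged library, and 1 region each at Ebf1 and Il7r that all 4 libraries shared. Each is the RefSeq GRCm38.p6 (mm10) plus strand from 100 bases before to 100 bases after the summit of the peak. Capitals mark matches on either strand to the 24 short motifs searched, and the rest is in lower case. The gene named is the one with the nearest protein-coding transcription start.
Lrig3, aged-only, chr10:125994910-125995110: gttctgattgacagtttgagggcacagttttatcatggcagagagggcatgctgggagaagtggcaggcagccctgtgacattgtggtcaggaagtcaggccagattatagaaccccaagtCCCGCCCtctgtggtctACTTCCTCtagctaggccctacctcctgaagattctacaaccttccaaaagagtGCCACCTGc
Sdk2, aged-only, chr11:114194112-114194312: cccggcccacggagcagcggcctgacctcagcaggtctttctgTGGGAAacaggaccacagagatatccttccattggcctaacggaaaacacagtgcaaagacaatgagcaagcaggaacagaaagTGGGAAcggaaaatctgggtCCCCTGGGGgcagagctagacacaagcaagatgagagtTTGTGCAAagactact
Mex3b, aged-only, chr7:82811194-82811394: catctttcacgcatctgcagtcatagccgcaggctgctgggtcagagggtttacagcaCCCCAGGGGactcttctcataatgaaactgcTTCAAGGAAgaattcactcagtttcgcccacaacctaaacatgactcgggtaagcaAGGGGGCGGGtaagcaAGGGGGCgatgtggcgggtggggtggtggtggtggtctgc
Fgfr1, young-only, chr8:25535475-25535675: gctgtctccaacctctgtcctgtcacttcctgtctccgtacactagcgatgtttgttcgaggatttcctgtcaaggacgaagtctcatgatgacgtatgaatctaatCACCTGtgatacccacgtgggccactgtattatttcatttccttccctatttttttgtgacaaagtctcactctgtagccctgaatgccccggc
Kctd8, young-only, chr5:68735294-68735494: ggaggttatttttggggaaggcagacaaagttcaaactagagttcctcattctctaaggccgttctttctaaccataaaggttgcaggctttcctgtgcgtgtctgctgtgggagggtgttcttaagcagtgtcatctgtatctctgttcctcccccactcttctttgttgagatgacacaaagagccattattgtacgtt
Cand1, young-only, chr10:119204533-119204733: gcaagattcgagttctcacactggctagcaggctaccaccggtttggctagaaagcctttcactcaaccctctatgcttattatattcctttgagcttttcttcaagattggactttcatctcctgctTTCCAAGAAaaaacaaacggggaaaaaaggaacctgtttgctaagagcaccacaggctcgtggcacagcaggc
Ebf1, shared, chr11:44624664-44624864: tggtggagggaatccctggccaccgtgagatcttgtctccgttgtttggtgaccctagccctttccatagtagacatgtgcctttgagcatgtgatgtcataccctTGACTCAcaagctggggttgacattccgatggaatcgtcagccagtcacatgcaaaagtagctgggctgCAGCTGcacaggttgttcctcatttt
Il7r, shared, chr15:9571945-9572145: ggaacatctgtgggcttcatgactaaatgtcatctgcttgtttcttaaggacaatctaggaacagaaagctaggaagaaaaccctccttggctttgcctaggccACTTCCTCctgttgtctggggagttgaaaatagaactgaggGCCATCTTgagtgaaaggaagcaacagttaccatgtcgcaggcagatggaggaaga
The Lrig3 sequence held a PU.1 motif (GAGGAAGT), an SP/KLF motif (GGGCGGG), a CTCF core (AGGNGGC) and an E-box (CAGGTG), the last 2 of them overlapping. The Sdk2 sequence held a C/EBP motif (TTGCNNAA), an EBF motif (CCCNNGGG) matched in 2 overlapping frames and 2 IKZF cores (TGGGAA). The Mex3b sequence held an EBF motif in 2 overlapping frames, a STAT motif (TTCNNNGAA) and 2 CTCF cores, of which 1 overlapped an SP/KLF motif. The Fgfr1 sequence held 1 E-box CAGGTG, the Cand1 sequence 1 STAT motif and the Kctd8 sequence none of the 24 motifs. The Ebf1 sequence held an AP-1 motif (TGANTCA) and an E-box CAGCTG, and the Il7r sequence a PU.1 motif starting 4 bases from the summit and a YY1 motif (AAGATGGC). Over all 42440 CLP regions with sequence, the share holding each motif in the same window was 8.47% for PU.1, 15% for CAGGTG, 17.9% for CAGCTG, 8.86% for EBF, 8.15% for C/EBP, 5.6% for STAT, 15% for IKZF, 21.4% for CTCF, 15.6% for SP/KLF, 6.95% for AP-1 and 1.47% for YY1. The other motifs searched were IRF (GAAANNGAA, 8.48% of all regions), RUNX (TGTGGTTT, 5.74%), that of GATA factors (AGATAA, 5.95%), ETS (CCGGAAGT, 2.16%), FOXO (TGTTTAC, 2.12%), CRE (TGACGTCA, 1.25%), NF-kB (GGANTTTCC, 1.09%), TCF/LEF (CTTTGAA, 3.28%), POU (ATGCAAAT, 1.04%), HOX (TGATTTAT, 0.657%), E2F (TTGGCGC, 1.29%), NFY (AGCCAAT, 4.44%) and NRF1 (GCGCATGC, 1.41%). Every match is a match of letters and not a measured binding site.

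The young libraries held 29936 and 34205 peaks and the aged libraries 27117 and 34194. The means were 32070 ± 3019 (SD, n = 2) in young and 30656 ± 5004 in aged CLPs, a difference within the spread between libraries (two-sided exact permutation test, p = 0.667, where 0.333 is the smallest that 2 against 2 allows). The authors subsampled all libraries to one depth, which solving the peaks' statistics returned as about 8990000 reads in each of the 4. The weakest called summit carried 7 reads in each library and the median summit 21 to 23, over a background of 0.817 to 0.88 reads. Aged replicate 1 had the fewest peaks, and the main shares are also given without it. The peak names of both replicates 2 carry the word new and those of both replicates 1 do not.

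The labels were checked against marker genes. Of 85 regions of the whole series nearest to 12 genes that mark CLPs, the CLP libraries called 29 to 37, which was 1.08 to 1.14 per 1000 of their regions, against 0.808 to 0.982 in MPP4, 0.708 to 0.801 in GMPs and at most 0.108 in MEPs. The Il7r promoter, for the IL-7 receptor, was called in all 4 CLP libraries with 20, 22, 18 and 19 reads over its summit (young 1, young 2, aged 1, aged 2, the order used throughout), and the Flt3 start, for a cytokine receptor of early lymphoid cells, with 103, 99, 86 and 94 reads. No region of the series was nearest to Rag1, Rag2 or Cd79a. Of 94 regions nearest to 13 GMP marker genes the young CLPs called 17 and 23 and the aged CLPs 19 and 27, against 70 to 73 in the GMP libraries. Per 1000 called regions this was 0.585, 0.692, 0.722 and 0.812, with both aged above both young libraries, against 1.18 to 1.4 in the GMP libraries. The primary granule genes Mpo, Elane and Ms4a3 and the neutrophil antigen Ly6g had no called region in any CLP library. Prtn3, another primary granule gene, had 0, 1, 1 and 1 called regions of 2 and Csf3r 1, 1, 2 and 3 of 8, as had Cebpe 0, 1, 1 and 1 of 6, and Cebpa, Cebpb, Csf1r and Itgam had called regions in all 4 libraries. A single region at Ctsg and a single region at S100a8 were called in aged replicate 2 alone.

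Peaks of the 4 CLP libraries that overlapped by 1 bp or more were merged into 42546 regions with a median width of 357 bp. All 4 libraries called 21424 of them (50.4%), 3 called 5582, 2 called 5610 and 1 called 9930. Both aged and no young libraries called 842 regions, 1.98% of all, termed aged-only here. Both young and no aged libraries called 1224 regions, 2.88% of all, termed young-only. The same count was taken for the other pairings of the 4 libraries as the noise level. By replicate number, 195 regions were called in both replicates 1 alone and 1997 in both replicates 2 alone, and in the crossed pairing 846 were called in young 1 and aged 2 alone and 506 in young 2 and aged 1 alone. The 2066 regions that separated the ages were therefore fewer than the 2192 that separated the replicate numbers and more than the 1352 of the crossed pairing.

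This order depended on the number of peaks per library. When each library was cut to its strongest 27117 peaks by -log10 q, the number in the smallest, 953 regions were aged-only and 956 young-only, a total of 1909, above the 1413 of the replicate numbers and the 1343 of the crossed pairing. The excess of young-only over aged-only regions was gone at equal numbers. Most of the regions lay close to the calling limit: the weaker of the 2 calls had a median of 11 reads over the summit in aged-only and 12 in young-only regions, and only 95 of the former and 122 of the latter reached a -log10 q of 10 or more in both of their libraries. At this depth a region that was not called may still have been open below 7 reads or so, and a call in 2 against 0 libraries does not show that a region was closed in the other age.

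**Figure D1:**
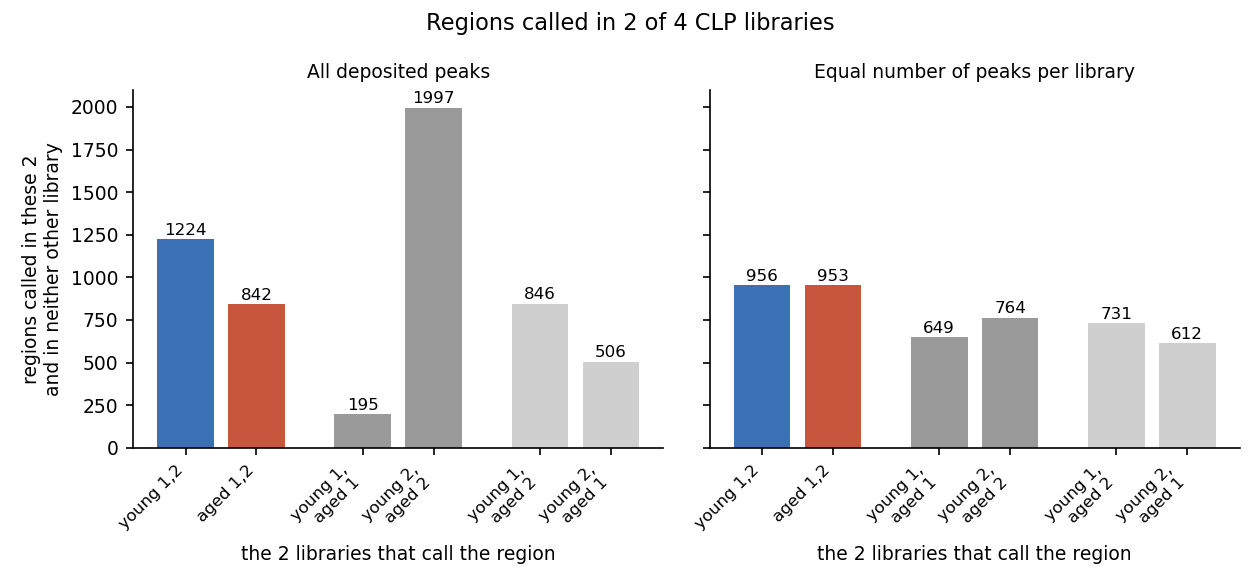
Number of regions called in the 2 named CLP libraries and in neither of the other libraries, for the 3 ways to pair the 4 libraries, from all deposited peaks (left) and from an equal number of peaks per library (right). Blue and red bars are the ages, grey bars the other pairings. From all peaks the pair of replicates 2 has the highest bar (1997), and at equal numbers both age bars (956 and 953) stand above the other 4 (612 to 764).

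Whole peak sets were hardly more alike within an age than between ages. The Jaccard index, the covered length in both over that in either library, was 0.635 for the young pair and 0.591 for the aged pair, and 0.572 to 0.63 for the 4 pairs of unlike age. The mean of same-age pairs exceeded that of the others by 0.00895 (exact permutation test, p = 0.667). At the regions called in all 4 libraries, Spearman's rho of fold enrichment across regions, which are not independent replicates, was 0.828 for the young pair and 0.796 for the aged pair, and 0.776, 0.802, 0.774 and 0.816 for the 4 pairs of unlike age. The mean same-age rho was higher by 0.0205 (exact permutation test, p = 0.333, the smallest possible here), but the aged pair alone was below 2 of the 4 pairs of unlike age. With 1 library left out this difference ranged from 0.000272 (without young replicate 1) to 0.0531 (without aged replicate 2).

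Aged-only and young-only regions had similar strength and position, and both differed from the shared regions, which pass the calling limit by a wider margin. Promoters, taken as 1000 bp before to 100 bp after a start, made up 9.86% of aged-only and 11% of young-only regions, against 35.7% of the regions called in all 4 libraries. Introns made up 40% and 40.4%, and intergenic stretches 45.8% and 41.3%. The median distance to the nearest start was 22.9 kb for aged-only and 19.1 kb for young-only regions, and 5.25 kb for shared regions. The median GC content around the summit was 49.8% and 50.7%, against 55.2% in shared regions. The median of the lower -log10 q was 6.35 in aged-only and 6.18 in young-only regions.

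They differed in the other fractions, whose libraries had no part in choosing them. Of the 842 aged-only regions 478 (56.8%) were called in at least 1 of the 24 HSC and MPP libraries, against 1038 of the 1224 young-only regions (84.8%) and 77.9% to 79% of the 4 sets of the other pairings. A further 176 aged-only regions (20.9%) were called in a GMP library and in no HSC or MPP library, against 84 young-only regions (6.86%) and 9.23% to 11.5% in the other pairings. The remaining 187 aged-only (22.2%) and 101 young-only regions (8.25%) were called in CLP libraries alone, apart from 1 region of each set called in MEPs, and the other pairings gave 9.57% to 12.8%. The regions called in aged CLPs alone were thus less often shared with stem cells and multipotent progenitors, and more often without a call there, be it with or without one in GMPs, than those called in young CLPs alone. Over all CLP regions the shares of the 3 classes were 84.7%, 7.44% and 7.83%, near those of the young-only regions. All regions include the stronger ones called in all 4 libraries, of which 94.5% were called in HSCs or MPPs. Against the other pairings both age sets lay outside the range in each class, in opposite directions, the aged-only set further away.

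The difference was seen library by library. A single HSC or MPP library called 15.7% to 31.9% of the aged-only regions (median 25.4%) and 31% to 55.6% of the young-only regions (median 42.4%), and the young-only share was the higher one in 24 of 24 libraries, by 9.59 to 27.9 percentage points. The medians of the other pairings were 36.4% to 40.6% and that of all CLP regions 56.1%. By single libraries both age sets thus lay below all regions. The young-only median lay slightly above the other pairings and the aged-only median further below them. In HSCs the aged-only share was 20.8% ± 5.24 (SD, n = 4) in young and 20.6% ± 0.932 in aged mice, and the young-only share 39.4% ± 6.9 and 36.1% ± 1.59, so neither share moved with the age of the HSCs by more than its spread. In MPP4, the lymphoid-primed progenitors, the aged-only share was 28.7% ± 1.43 (SD, n = 2) in young and 30.5% ± 1.43 in aged mice and the young-only share 53.2% ± 3.29 and 51.9% ± 1.91. The GMP libraries called both sets alike, 50.7% to 60% of aged-only and 48.8% to 60.9% of young-only regions, against 70.3% to 76.5% of all CLP regions. The MEP libraries called 2.02% to 3.44% and 2.45% to 3.92%, against 18.3% to 20.8% of all CLP regions.

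**Figure D2:**
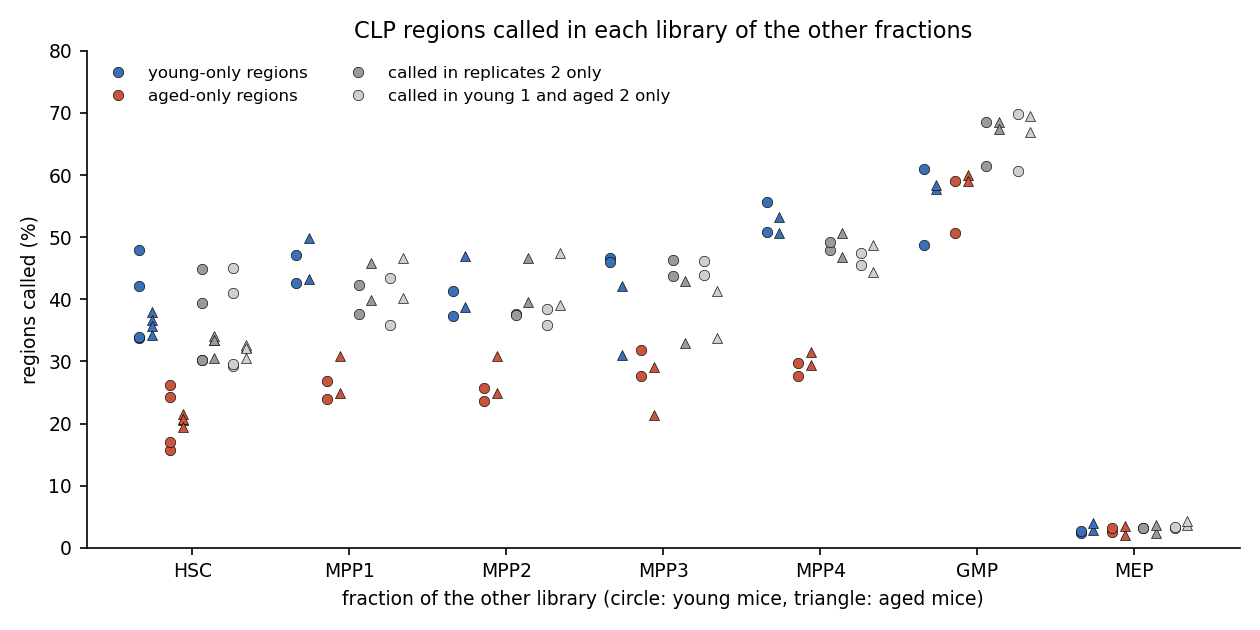
Percentage of CLP region sets called in each library of 7 other fractions (circles, young mice; triangles, aged mice). The aged-only regions (red) lie below the young-only regions (blue) and below 2 sets of other pairings (grey) in every HSC and MPP library, from 15.7% to 31.9%, and beside the young-only regions in GMPs and MEPs.

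The gap kept its direction in each way it was recomputed after the data were seen. At a -log10 q of at least 10 the share called in HSCs or MPPs was 65.2% for aged-only and 93% for young-only regions, and at equal peak numbers 61.7% and 88.2%. Within replicate 1 alone it was 67.3% for the regions called in aged and not young CLPs and 83.7% for the reverse, and within replicate 2 alone 65.7% and 77.7%. Without aged replicate 1 it was 61.7% and 85.2%, without aged replicate 2 59.3% and 87.8%, without young replicate 1 64.9% and 76.7% and without young replicate 2 68.1% and 79.2%, so the gap narrowed most when a young library was left out. The share of the GMP class was 17.8% and 9.47% without young replicate 1, 16.8% and 9.05% without young replicate 2, 17.7% and 7.08% without aged replicate 1 and 18.1% and 5.9% without aged replicate 2.

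The regions called in all 4 libraries were split in the same way, and their choice did not depend on age. Of the 21424 shared regions 20235 were called in an HSC or MPP library, 695 in GMPs and in no HSC or MPP library and 494 in CLPs alone. Their median log2 fold enrichment, quantile-normalized so that all libraries had one distribution, was 2.98, 3, 3.09 and 3.11 in the GMP class and 2.96, 2.95, 3.13 and 3.1 in the class of CLPs alone. In both classes both aged libraries lay above both young ones, by 0.11 and 0.16 on the log2 scale, with SDs of at most 0.02 within an age (exact permutation test, p = 0.333, the smallest possible). In the class called in HSCs or MPPs the medians were 3.36, 3.36, 3.35 and 3.35.

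Single regions showed the same tilt. In the limma fit described below, 11.1% of the GMP class were higher in aged CLPs at an unadjusted p under 0.05 and 1.29% higher in young CLPs, and in the class of CLPs alone 13.8% and 2.83%. In the class of HSCs or MPPs the shares were 2.99% and 3.95%. Under the pairing by replicate number the same classes gave at most 4.17% in either direction, and under the crossed pairing at most 2.83%. The share of each library's own regions that fell in the GMP class was 4.56%, 5.42%, 5.44% and 6.61%. Young replicate 2 and aged replicate 1 were thus nearly equal. Of the 10963 regions of the series that all 4 GMP libraries and no HSC or MPP library called, the CLP libraries called 6.8%, 9.19%, 7.63% and 11.5%. There the ages overlapped, with aged replicate 1 below young replicate 2. Regions at GMP marker genes were at 0.585 and 0.692 per 1000 regions in young and 0.722 and 0.812 in aged CLPs. By gene the counts went different ways. Csf3r had 1, 1, 2 and 3 called regions, and Ctsg and S100a8 1 each in aged replicate 2 alone. Cebpa had 2, 5, 2 and 4, Cebpb 9, 9, 8 and 10, Csf1r 2, 3, 2 and 3 and Itgam 3, 3, 3 and 3. Mpo, Elane, Ms4a3 and Ly6g had none in any library. Regions at markers of plasmacytoid dendritic cells were at 0.93, 1.02, 1.14 and 1.08 per 1000. The part of other cells in these differences was not tested. In sorted bulk cells a change in chromatin of all cells and a change in the mix of cells cannot be told apart.

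**Figure D3:**
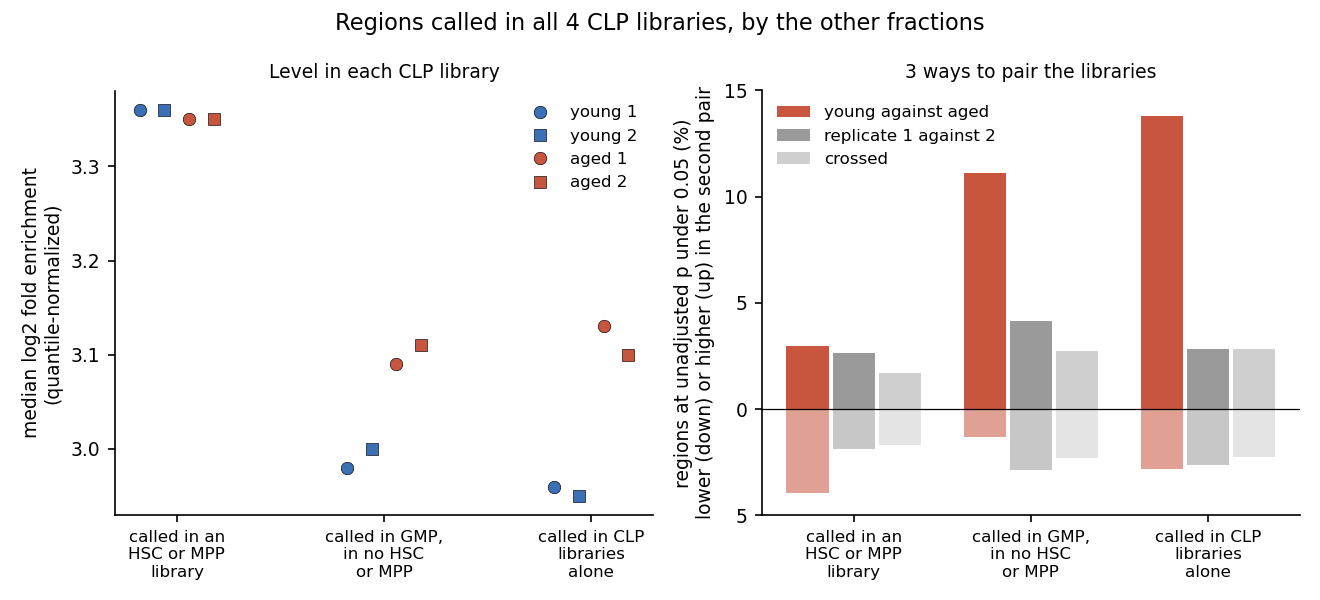
Regions called in all 4 CLP libraries, split by the other fractions that call them. Left, median log2 fold enrichment in each CLP library (axis not from 0), where both aged libraries lie above both young ones in the GMP class (3.09 and 3.11 against 2.98 and 3) and in the class of CLPs alone. Right, percentage of regions at unadjusted p under 0.05, upwards for higher and downwards for lower in the second pair, for the ages (red) and the other pairings (grey), where the age bars reach 11.1% and 13.8% and no grey bar exceeds 4.17%.

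Of the 24 motifs, C/EBP had the widest gap in percentage points between aged-only and young-only regions. Motifs that few regions held, such as HOX (0.238% and 1.07%) and CRE (0.358% and 1.23%), differed more as a ratio, on 15 or fewer regions a set. A C/EBP motif lay within 100 bases of the summit in 11.9% of aged-only regions, 8.05% of young-only regions, 7.73% to 9.22% of the other pairings and 8.15% of all CLP regions. The PU.1 motif was present in 10.8% of aged-only and 8.21% of young-only regions (all regions, 8.47%) and an IRF motif (GAAANNGAA) in 11.3% and 8.05% (all regions, 8.48%), where the other pairings reached 10.6%. The E-box CAGGTG, the site of the E proteins Tcf3 and Tcf12, was alike at 16.7% and 17.5%, and the EBF motif was held by 6.79% and 7.8%. C/EBP did not stand out among shared regions higher in aged or in young CLPs at an unadjusted p under 0.05 (limma). There it was held by 9.73% and 8.06%. The IRF motif had the widest gap there, at 12.8% and 6.96%, and AP-1 went the other way, at 6.13% and 9.77%.

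The motif shares were also taken by class. In aged-only regions called in GMPs and in no HSC or MPP library, 31 of 176 (17.6%) held a C/EBP motif, against 5 of 84 such young-only regions (5.95%) and 10.3% of all CLP regions of that class. In the class of HSCs or MPPs, which held 56 of the 100 aged-only regions with a C/EBP motif, the share was 56 of 475 (11.8%) in aged-only regions, 8.23% in young-only and 8.16% in all regions. In aged-only regions of CLPs alone the C/EBP motif was held by 13 of 187 (6.95%), against 7.92% in young-only and 5.99% in all regions of that class. The E-box CAGGTG was held by 58 of 187 (31%), against 26 of 101 (25.7%) in young-only regions and 27.5% in all regions of that class. Among regions also called in HSCs or MPPs the E-box share was 13.5% in aged-only, 17% in young-only and 14% in all CLP regions. The PU.1 and IRF shares were not higher in aged-only than in young-only regions of the GMP class (PU.1 14.2% and 15.5%, IRF 17% and 17.9%). Nor were they in the class of CLPs alone (PU.1 8.02% and 8.91%, IRF 11.8% and 13.9%). In the class of HSCs or MPPs both were higher in aged-only regions (PU.1 10.7% and 7.55%, IRF 9.05% and 6.68%). The counts are small, and no test was made of them.

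**Figure D4:**
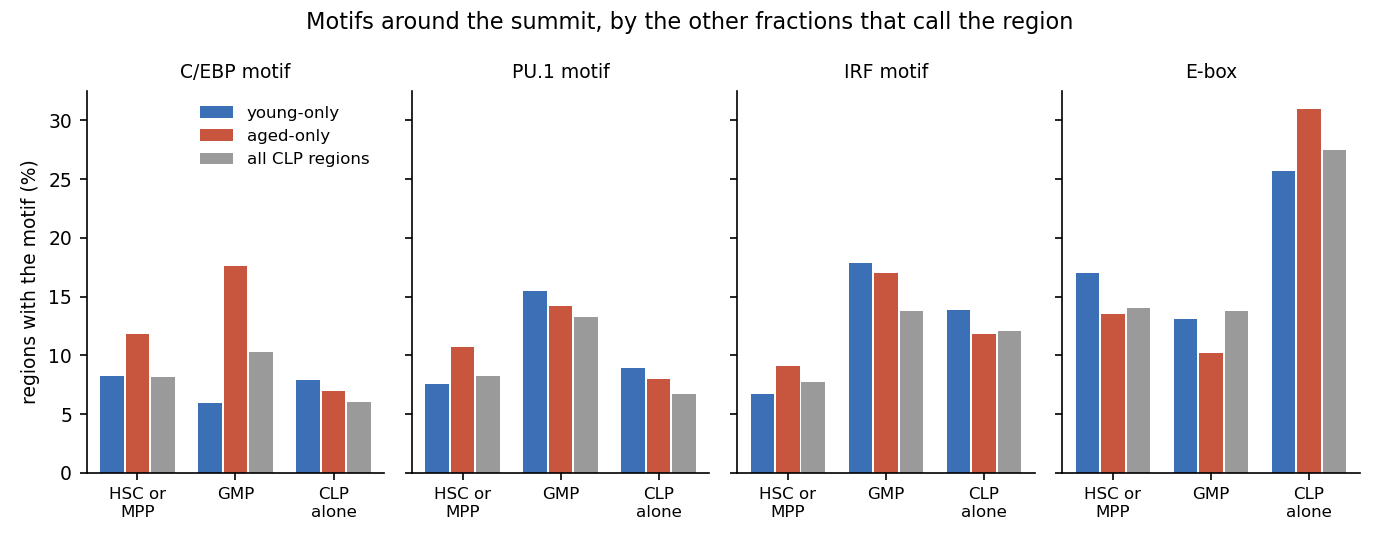
Percentage of regions with a C/EBP, PU.1, IRF or E-box (E-protein) motif within 100 bases of the summit, for young-only (blue), aged-only (red) and all CLP regions (grey), by the other fractions that call the region. The C/EBP bar of aged-only regions in the GMP class reaches 17.6%, against 5.95% and 10.3%, and the E-box bars of the class of CLPs alone lie between 25.7% and 31%.

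The strongest aged-only regions, ranked by the lower of their 2 within-library percentiles of fold enrichment, came from all 3 classes. An intronic region of Lrig3, a regulator of growth factor receptors (chr10:125994868-125995234), had 25 and 31 reads over the summit in the aged libraries and was called in 28 of the 32 other libraries, all HSC, MPP and GMP libraries among them. A region 128 kb upstream of Sdk2, a cell adhesion gene (chr11:114194080-114194364), had 27 and 23 reads and was called in the 4 GMP libraries and in no other. A region 56.1 kb upstream of Mex3b, an RNA-binding protein gene (chr7:82811083-82811466), had 21 and 23 reads and was called in none of the 32 other libraries. All 6 values of these 3 regions were at or above 21 reads, where 7 sufficed for a call. This follows from their rank in the same libraries. Over all 842 aged-only regions the weaker call had a median of 11 reads.

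Regions near Gng10, a G protein subunit gene (chr4:59043142-59043439; 30 and 32 reads), and near Ibtk, an inhibitor of the B-cell kinase Btk (chr9:85568733-85569211; 18 and 18 reads), were also called in the 4 GMP libraries alone. The sixth, 275 kb from the urea cycle gene Cps1 (chr1:67397865-67398320), had 19 and 31 reads and was called in 20 other libraries. Of the 6 strongest aged-only regions 3 were thus of the GMP class, which held 20.9% of all aged-only and 7.44% of all CLP regions. Klf3, a repressor of the Krüppel-like family with roles in B-cell maturation, had the most aged-only regions of any gene, 4. They lay 193, 141 and 128 kb upstream and in an intron 1.24 kb from its start, and Klf3 also had 1 young-only region. The count was not set against the number of all CLP regions nearest to the gene.

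Of the 6 strongest young-only regions 5 were called in HSC or MPP libraries, near the share of all young-only regions (84.8%) and of all CLP regions (84.7%). An intronic region of Fgfr1, a fibroblast growth factor receptor gene (chr8:25535444-25535689), had 23 and 31 reads in the young libraries and was called in 27 other libraries. An intronic region of Cand1, an exchange factor of cullin ubiquitin ligases (chr10:119204494-119204754), had 26 and 25 reads and was called in 23. Intronic regions of Zmynd8, a chromatin reader (chr2:165852560-165852800; 26 and 24 reads), and of Asic2, nearest to the start of 5530401A14Rik (chr11:81909506-81909834; 26 and 24 reads), were called in 12 and 3 other libraries. A region 14.7 kb upstream of Erlin2, an endoplasmic reticulum gene (chr8:27008980-27009299; 18 and 22 reads), was called in 11. The exception, 606 kb from Kctd8 (chr5:68735225-68735723; 32 and 37 reads), was called in the 2 young GMP libraries alone. Spred2, an inhibitor of Ras signalling, and Irf2bp2, a transcriptional co-repressor, had 3 young-only regions each, as had the Y-linked model Gm21860. These counts too were not set against all CLP regions nearest to each gene. The mice were female, and Y sequence shares copies with other chromosomes, so the Gm21860 regions are uncertain.

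The levels of the 21424 shared regions were compared with limma on the quantile-normalized log2 fold enrichment. No region differed between the ages after Benjamini-Hochberg adjustment (limma without a replicate term, 0 higher and 0 lower, smallest adjusted p = 0.201). With a replicate block, 20 were higher in aged and 23 in young CLPs (limma, smallest adjusted p = 2e-04). No label says that the replicate numbers mark a shared batch, so the fit without the block was kept. In it 751 regions (3.51%) were higher in aged and 823 (3.84%) higher in young CLPs at an unadjusted p under 0.05. These were 7.35% in all, against 4.63% for the pairing by replicate number and 3.46% for the crossed pairing. On reads over the summit in place of fold enrichment, an alternative chosen after seeing the data, the shares were 8.61%, 3.21% and 2.72% with no region past the adjusted threshold. By these shares the ages were further apart than either noise pairing, while by calls from all peaks they were not, and the smallest adjusted p of the crossed pairing (0.127) was below that of the ages. Without normalization the share for the ages was 4.22%. Without young replicate 2, 4 regions were higher in aged and 1 in young CLPs after adjustment, and without young replicate 1, 2 and 0.

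The 5 shared regions with the smallest p in each direction are given with reads over the summit. None of them passed in the fit without a replicate term. Their choice by the smallest p of the age contrast favours ages that do not overlap, so a lack of overlap at them adds no support. In an intron of Pir, a nuclear redox protein gene (chrX:164280772-164281161), the reads were 11, 16, 32 and 43, a log2 difference of 1.22 ± 0.21 (SE, limma, adjusted p = 0.201), and no other fraction called the region. Both aged values lay above both young ones. In the intergenic region 68.6 kb from Nufip1 (chr14:76179314-76179717) the reads were 15, 14, 26 and 43, and 262 kb from the zinc finger gene Zfat (chr15:67996582-67996918) they were 13, 13, 34 and 31. In an intron of Lpcat2, an enzyme of platelet-activating factor synthesis in myeloid cells (chr8:92875711-92876258), they were 34, 18, 48 and 62, and 87.2 kb upstream of the polarity gene Pard6g (chr18:79959434-79959845) 12, 12, 24 and 29. The groups did not overlap in any of the 5, as their choice favours. The Zfat and Lpcat2 regions were called in the 4 GMP libraries and in no HSC or MPP library, and the GMP class held 3.24% of all shared regions.

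The region with the smallest p among those higher in young CLPs lay in the immunoglobulin heavy-chain locus, over the variable segment Ighv1-58 (chr12:115311997-115312299, 736 kb from Zfp386, the nearest protein-coding start counted here). Its reads were 68, 70, 30 and 44, a log2 difference of -0.55 ± 0.11 (SE, limma, adjusted p = 0.256), and both aged values were below both young ones. The other 4 were 7.03 kb upstream of the collagen chaperone gene Serpinh1 (43, 47, 21 and 20 reads), 10.6 kb upstream of the zinc finger gene Bnc2 (87, 98, 42 and 48), in an intron of the defensin gene Defb47 (32, 33, 18 and 14) and in an intron of Sema7a, a semaphorin gene (46, 36, 15 and 25). All 5 were called in HSC or MPP libraries, as were 94.5% of all shared regions. The ages overlapped in none of the 5, as their choice by the smallest p favours.

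**Figure D5:**
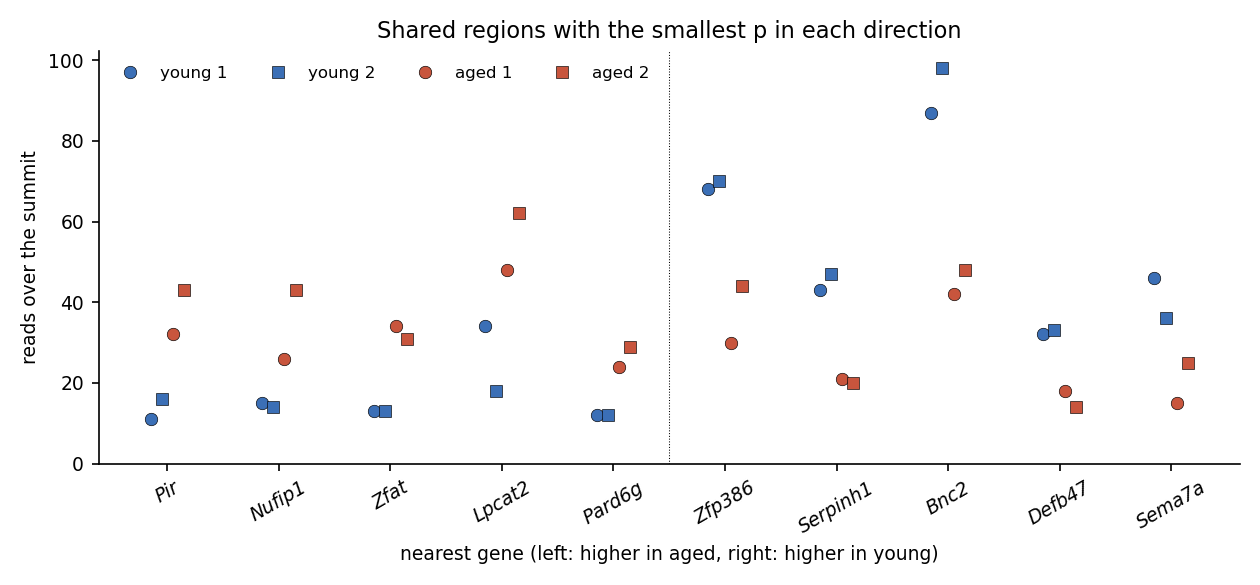
Reads over the summit in each CLP library (blue, young; red, aged; circle, replicate 1; square, replicate 2) at the shared regions with the smallest p in each direction, named by the nearest gene. The regions were picked by the age contrast, which favours ages that do not overlap, as is so at all 10. No region passed the adjusted threshold in the fit without a replicate term. The region named Zfp386 lies over the heavy-chain segment Ighv1-58.

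The heavy-chain locus was followed further because it is opened as CLPs turn towards B cells. Of 56 regions between 113254830 and 116010093 on chromosome 12, young CLPs called 42 and 45 and aged CLPs 27 and 39, and the ages did not overlap. Over all 42546 regions the libraries called 69.3%, 79.3%, 62.6% and 79.3%, so aged replicate 1 called the fewest regions both here and over all, while aged replicate 2 called 39 here and as large a share over all as young replicate 2. Of 19 shared regions there, 13 were lower in aged CLPs, with a median log2 difference of -0.09, and 4 were lower at an unadjusted p under 0.05 and none higher. Besides Ighv1-58 these lay over Ighv1-53 (20, 24, 10 and 16 reads, log2 difference -0.65), Ighv1-62-2 (30, 42, 16 and 23, -0.49) and Ighv1-70 (13, 12, 8 and 8, -0.55), all with adjusted p of 0.256 to 0.63 (limma). The variable segments are near copies of each other, so reads shared between copies may be placed at the wrong one. At the light-chain locus Igk the counts were 11, 12, 11 and 12 of 15 regions, at the T-cell receptor loci Tcra and Tcrd 10, 16, 11 and 13 of 21, and at Tcrb 12, 14, 6 and 14 of 21, where the ages overlapped. At Igl the counts were 2, 2, 3 and 3 of 3, higher in aged CLPs, and at Tcrg 6, 6, 5 and 5 of 6, lower in aged CLPs. The heavy-chain locus was looked at after its region had come first in the list, and its values are a description.

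None of the regions named from here on passed the adjusted threshold in the fit without a replicate term, and p-values are given unadjusted. Many shared regions were named for their small unadjusted p, which favours ages that do not overlap. Lymphoid regulators, 28 transcription factors of B- and T-cell commitment, had 321 regions near 27 of the genes. Of these 8 (2.49%) were aged-only and 8 (2.49%) young-only, against 1.98% and 2.88% of all CLP regions, and the 2 shares were equal. At their 129 shared regions the median log2 difference was -0.02, where that of all shared regions was 0, and 3 were higher in aged and 4 in young CLPs at an unadjusted p under 0.05. Ebf1, the factor that commits CLPs to the B lineage, had 27, 17 and 10 reads at its promoter in young 2, aged 1 and aged 2 and no call in young 1. Its shared intronic region shown above (chr11:44624561-44624961) had fold enrichments of 10.4, 8.01, 6.37 and 4.4, a log2 difference of -0.77 (limma, unadjusted p = 0.0106), and a further intronic region, 64.9 kb into the gene, was young-only and called in no other fraction. Pax5, which keeps B-cell identity, had 1 intronic region at 13.7, 10.1, 5.94 and 10.5 that no other fraction called (log2 difference -0.6, unadjusted p = 0.031, limma), where aged replicate 2 lay above young replicate 2.

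Other lymphoid regulators had regions in both directions. Id2, an inhibitor of E proteins needed by innate lymphoid cells, had 36 regions, of which 2 were aged-only and 1 young-only. Ets1 had 1 of each and Lef1, a Wnt effector, had an aged-only region 0.527 kb upstream of its start (fold enrichment 4.38 and 4.94) and a young-only region in an intron (5.32 and 5.93). Irf8, a factor of both myeloid and lymphoid progenitors, had a young-only region 10.9 kb upstream and an aged-only region 45.4 kb beyond its start, of which the latter was called in GMPs and in no HSC or MPP library. Runx1 had 2 aged-only regions, both of the GMP class, and Irf4 had 1, called in CLPs alone. Bcl11a, Mef2c and Fli1 had a young-only region each. At Mef2c, a lymphoid-priming factor, 2 shared regions were higher in aged CLPs, with fold enrichments of 6.74, 7.05, 8.27 and 13.6 at the first and 7.63, 5.61, 9.45 and 12.2 at the second, which did not overlap (unadjusted p = 0.0213 and 0.0125, limma). A shared region of Runx1 was also higher in aged CLPs at an unadjusted p under 0.05, and shared regions of Ets1 and Id2 were higher in young CLPs.

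Starts of lymphoid genes varied in whether the ages overlapped. At the promoter of Tcf3, an E protein, the reads were 40, 42, 29 and 51, at that of Ikzf1, the Ikaros gene, 46, 40, 42 and 50, and at that of Foxo1, which drives Il7r, 21, 33, 18 and 24. The ages overlapped at these 3. At the promoter of Notch1, the receptor of T-cell commitment, the fold enrichments of 7.33, 6, 4.65 and 5.35 did not overlap (log2 difference -0.44, unadjusted p = 0.0778, limma).

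B-lineage effectors had 59 regions near 14 of 20 genes, with 2 aged-only and 1 young-only. The aged-only regions lay 4.52 kb upstream of Blnk, the adaptor of the pre-B-cell receptor (fold enrichment 4.2 and 5.53), and at a start of Ptpn6, a phosphatase (4.34 and 3.68). Dntt, the enzyme that adds nucleotides at V(D)J joins, had a region 2.52 kb upstream that was higher in aged CLPs (4, 6.54, 8.25 and 8.32, log2 difference 0.71, unadjusted p = 0.0125, limma) and an intronic one that was lower (13.6, 17.7, 8.1 and 15.4), where aged replicate 2 lay between the young values. The kinase gene Syk had an intronic region at 8.55, 7.73, 4.8 and 6.15 (log2 difference -0.61). The upstream Dntt region was called in GMPs and in no HSC or MPP library.

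IL-7 signalling genes, 18 in all, had 109 regions, of which 2 were aged-only and 2 young-only (1.83% each). A region 42.2 kb upstream of Il7r itself, the one with the PU.1 motif beside the summit shown above (chr15:9571857-9572234), had fold enrichments of 6.29, 9.95, 13.9 and 12.5 (log2 difference 0.74, unadjusted p = 0.00662, limma), with both aged above both young values, and it was called in GMPs and in no HSC or MPP library. The Il7r promoter did not share this, at 8.22, 9.28, 7.86 and 7.7. Pik3r1, the regulatory subunit of the kinase that IL-7 activates, had both young-only regions and 2 shared regions lower in aged CLPs, among them its promoter (59, 78, 40 and 57 reads, log2 difference -0.5, unadjusted p = 0.0154, limma). Bcl2, a survival gene, had an intronic region at 6.61, 6.85, 4.89 and 4.17 (log2 difference -0.57). The aged-only regions lay near Bcl2l11, the pro-apoptotic Bim gene, and 18.8 kb upstream of the kinase gene Jak1, the latter of the GMP class.

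T, NK and innate lymphoid genes had no aged-only and 2 young-only regions of 61, near Hes1 and Gata3, and 1 shared region 783 kb from Gata3 at 6.91, 6.47, 11.3 and 8.8 (log2 difference 0.57), and the sorting antigens none and 1 of 56, near Fcgr3. The lists of other processes were read against the same background of 1.98% aged-only and 2.88% young-only. Cell cycle genes had 1 aged-only and 5 young-only regions of 146 (0.685% and 3.42%), the latter at Cdk6, Cdkn2c, Ccnd2 and Ccne1. At the shared regions of this list the median log2 difference was 0.04. An intronic region of Cdkn1a, the p21 inhibitor, had fold enrichments of 6.65, 7.68, 12.9 and 12.9 (log2 difference 0.84, unadjusted p = 0.00154, limma), and the promoter of the mitotic kinase gene Cdk1 10.3, 10.7, 14.2 and 15. E2f3, an activator of S-phase genes, had an intronic region at 12.5, 11.3, 8.99 and 5.81 (log2 difference -0.7, unadjusted p = 0.0157, limma), and 1 region of E2f8, 27.5 kb upstream, 13.7, 15, 10.9 and 9.94. The E2f8 promoter went the other way, at 11.6, 11.7, 14.1 and 16.7, as did an intronic region of Rrm1, a ribonucleotide reductase gene, at 11.7, 14.3, 18.6 and 17.9. The ages did not overlap at these 6. Of the 76 shared regions of the list, 4 were higher in aged and 2 in young CLPs at an unadjusted p under 0.05, where the shares over all shared regions were 3.51% and 3.84%.

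Interferon and NF-kB genes had 148 regions, 1 of them aged-only and 4 young-only. The start of Tlr4, the receptor of lipopolysaccharide, had fold enrichments of 13.8, 16.3, 20.5 and 25.2 (log2 difference 0.58, unadjusted p = 0.000314, limma), and the promoter of the interleukin 1 receptor gene Il1r1 16.1, 17.9, 9.72 and 11.7 (log2 difference -0.69, unadjusted p = 0.00095, limma). Within an intron, Il1r1 had a further region at 7.36, 6.36, 10.8 and 10.8 (log2 difference 0.64, unadjusted p = 0.0159, limma). The ages did not overlap at any of these, and the regions of Il1r1 went opposite ways. Of 81 shared regions of this list 3 were higher in aged and 3 in young CLPs at an unadjusted p under 0.05, near the share over all shared regions. AP-1, ATF and CNC factors had 2 aged-only (Batf and Batf3) and 4 young-only regions (Fos, Jun, Egr1 and Mafg) of 141, and a region 37.5 kb upstream of Fos, a stress-induced AP-1 subunit, had 12, 10.7, 5.94 and 5.79 (log2 difference -0.95, unadjusted p = 0.00091, limma). Of the 77 shared regions of this list 1 was higher in aged and 3 in young CLPs at an unadjusted p under 0.05. MHC class II genes had none of either in 21 regions, with a median log2 difference of -0.19 at 10 shared regions, 8 of them lower in aged CLPs.

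Marker genes of other cell types had small counts, with young-only shares of 6.78% (HSC), 5% (MEP), 7.69% (mature B), 6.9% (plasma cell), 6.67% (T) and 6.25% (NK), above the 2.88% of all regions, from 1 to 4 regions a list. The CLP markers were at 4.55%, the GMP markers at 3.23% and those of plasmacytoid dendritic cells at 2.17%. HSC marker genes had no aged-only and 4 young-only regions of 59, 2 at Hlf and 1 each at Meis1 and Mllt3, 3 genes known from stem cell self-renewal. The HSC libraries themselves called the Mllt3 region in 6 of 8, the Meis1 region in 1 of 8 and neither Hlf region. Of 176 regions of the series near these genes, the young CLPs called 47 and 50 and the aged CLPs 30 and 46 (1.62, 1.5, 1.14 and 1.38 per 1000 regions), and Procr, Selp, Hoxa9 and Aldh1a1 had none in any CLP library. The GMP markers had 1 aged-only region, at the start of the neutrophil growth factor receptor gene Csf3r (fold enrichment 5.94 and 4.4), and 1 young-only region near Cebpb. Markers of plasmacytoid dendritic cells had 1 of each in 46 regions, both near Irf8. Markers of mature B cells, plasma cells, T cells and NK cells had no aged-only region, and 2, 2, 1 and 1 young-only regions. In the whole series' regions of these lists the CLP libraries called 17, 22, 16 and 19 of 45 for mature B cells, 9, 9, 4 and 10 of 31 for T cells and 12, 13, 6 and 12 of 29 for NK cells. Their parts in the differences were not tested.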

How the data were processed

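Single-read ATAC-seq of sorted CLPs was deposited as 1 list of peaks per library, on mm10. Per the labels and the study's methods, the authors aligned reads with Bowtie2, subsampled all libraries to equal reads with SAMtools and called peaks in each library separately with MACS2 2.2.6. The deposited columns used hold fold enrichment at the summit (a ratio over local background) and the -log10 p-value and -log10 q-value, and the score column deposited by the authors, an integer form of the latter, was not tested.

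Peaks of the 4 CLP libraries were merged at an overlap of 1 bp, and the 32 other libraries entered only as called or not. Reads over each summit were solved from the fold enrichment and the Poisson p-value, and 100% of those solved were whole to within 0.05. Annotation was GENCODE vM21 and sequence RefSeq GRCm38.p6. Levels at shared regions were tested with limma 3.58.1 in R 4.3.3 on quantile-normalized log2 fold enrichment, with a trended prior and Benjamini-Hochberg adjustment (adjusted p under 0.05), after the code was tested on simulated data. The count model of the study needs reads per region and was not used here.

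Named were the 6 regions per direction with the highest lower percentile among calls, the 5 per direction with the smallest p among shared regions, and regions of listed genes in part, since some are not reported here. The members and lists were chosen with earlier results of these data known. Alternatives covered the peak threshold, equal peak numbers, overlap, merging, normalization, prior, replicate block and leaving out each library.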

Additional observations from a re-analysis of the deposited data

How the results depend on the processing

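The counts of age-only regions rest on 2 libraries per age and on weak peaks. The 842 aged-only regions became 523 from peaks of -log10 q of at least 10, and 95 where both calls had to reach that value and the other age no call. The 1224 young-only regions became 122 under the latter. With 1 library left out, the counts ranged from 1359 (without young replicate 1) to 4435 (without aged replicate 1) aged-only and from 1751 (without aged replicate 1) to 4764 (without young replicate 1) young-only, since fewer libraries then have to agree. Equal peak numbers, 50% coverage and merging over 36 libraries stayed within 1.5 times, as did the young-only count at -log10 q of at least 10.

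The difference in peaks per library, aged minus young, ranged from -4954 to 2124 with 1 library left out, and was above 0 without young replicate 2 (720) and without aged replicate 1. That of the Jaccard index ranged from -0.0165 to 0.0527, and was below 0 without young replicate 1 (-0.00995) and without young replicate 2. The share of regions called in HSCs or MPPs was higher by 28 percentage points in young-only than in aged-only regions, and by 18.6 when at least 12 of the 24 libraries had to call a region. With 1 library left out it ranged from 11.1 to 28.5, and the difference of 14 points in the GMP share from 7.76 to 12.2.

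The replicate numbers were not taken to pair the libraries: no label says that they mark a shared batch, and the deviations of same-numbered libraries correlated at 0.0404 across regions, although both replicates 2 carry the word new in their peak names and shared 1997 calls of their own. With the replicate block, limma called 20 shared regions higher in aged and 23 higher in young CLPs, all 10 named ones among them (smallest adjusted p = 2e-04), against 0 and 0 without it. Leaving out 1 library gave 0 to 4 higher in aged and 0 to 1 higher in young CLPs. Within replicate 1 and within replicate 2 alone, as the block for calls, 3952 and 5798 regions were called in aged and not in young CLPs, and 6801 and 5797 in young and not in aged CLPs. The HSC or MPP share then differed by 16.4 and 12.1 points and the GMP share by 8.22 and 6.9 points. At 7 or more reads per call, regions below that depth could not be seen.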
